A study of Mus musculus with 12 samples.

Results

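The p53 pathway and damage response genes examined here are 34 genes chosen by mouse symbol, namely Trp53 itself, 3 regulators of the p53 protein and 30 well-known transcriptional targets, out of 18221 genes listed for the spleen. All 34 were found. Spleens of 12 male ICR mice, an outbred stock, were sequenced, 3 in each of 4 groups. The mice entered treatment at 3 weeks of age and were sampled at 8 weeks. Con-sa mice received saline without busulfan. B-sa mice received saline after busulfan (40 mg/kg), a drug that alkylates DNA. B+Con-FMT mice received the same busulfan dose and then fecal microbiota transplantation (FMT) for 2 weeks from control donors, and B+A10-FMT mice received busulfan and FMT from donors that had been dosed with alginate oligosaccharide (AOS) at 10 mg/kg. The inoculum of each FMT group was pooled from several donors, so the mice of a group shared 1 inoculum, and no group had FMT without busulfan.

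The p53 protein is held low in unstressed cells by Mdm2, a ubiquitin ligase, and by its relative Mdm4. DNA damage activates kinases such as ATM, which modify p53 and Mdm2, and the p53 that accumulates then switches on genes for cell cycle arrest, cell death, DNA repair and its own negative feedback. The control is mainly on the protein, so the Trp53 transcript need not change when the pathway is active. Lymphocytes, which make up much of the spleen, are known to die readily through p53, and busulfan cross-links DNA.

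Levels are given as RPKM, a read count scaled to the length of the transcript and the size of the library, summed over the transcripts of a gene. Differences are log2 fold changes of RPKM + 1 with standard errors (SE) from limma, fitted over the 12671 genes that reached an RPKM of 1 in 3 or more mice. A gene was called at a Benjamini-Hochberg adjusted p under 0.05 over all of these genes. Of the 34 p53 genes, 33 passed that filter. Eda2r did not, because it reached an RPKM of 1 in only 2 mice. The relative depth of the 12 libraries was within 1.08-fold, and the absolute depth is not stated in the tables. The B cell gene Cd79a (530 to 745 RPKM), the red pulp macrophage gene Spic (44.6 to 81.0 RPKM) and the spleen stroma gene Tlx1 (12.6 to 21.6 RPKM) were present in all 12 mice. In whole tissue, fewer cells of a type and less RNA per cell cannot be told apart. The 6 comparisons share groups, so a gene that stands out in Con-sa or in B+Con-FMT enters several of them. How many of all genes tested separate the groups without overlap was not counted. A lack of overlap between mice is therefore given below as a description only.

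The sequences upstream of 4 genes are shown first because p53 binds DNA through a pair of half-sites, and because these genes behaved differently in the spleen. Each run holds the 250 bases before a RefSeq transcription start in GRCm38.p6, written 5′ to 3′ on the strand of the gene, and capitals mark exact matches to the p53 half-site consensus, a 10-base pattern that is its own reverse complement. Cdkn1a and Phlda3 were higher after busulfan, Gadd45a was called higher in B-sa versus Con-sa and in no other comparison, and Mdm2 was not called in any comparison.
Cdkn1a, chr17:29090729-29090978, plus strand, the more distal of its 2 starts: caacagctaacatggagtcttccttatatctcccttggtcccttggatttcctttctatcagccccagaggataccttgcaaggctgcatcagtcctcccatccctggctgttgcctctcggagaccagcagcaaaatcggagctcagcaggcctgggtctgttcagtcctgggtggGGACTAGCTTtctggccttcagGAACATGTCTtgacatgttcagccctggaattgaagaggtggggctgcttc
Phlda3, chr1:135765835-135766084, plus strand: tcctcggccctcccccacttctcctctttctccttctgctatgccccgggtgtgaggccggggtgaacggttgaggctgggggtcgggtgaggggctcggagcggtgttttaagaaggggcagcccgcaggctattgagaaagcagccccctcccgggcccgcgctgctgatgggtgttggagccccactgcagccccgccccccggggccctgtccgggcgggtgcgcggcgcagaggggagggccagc
Gadd45a, chr6:67037408-67037657, minus strand: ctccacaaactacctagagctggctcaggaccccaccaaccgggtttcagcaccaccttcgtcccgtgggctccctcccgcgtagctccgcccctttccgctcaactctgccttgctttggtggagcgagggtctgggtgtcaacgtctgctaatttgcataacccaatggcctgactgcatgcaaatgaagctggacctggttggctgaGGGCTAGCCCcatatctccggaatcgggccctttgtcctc
Mdm2, chr10:117710759-117711008, minus strand: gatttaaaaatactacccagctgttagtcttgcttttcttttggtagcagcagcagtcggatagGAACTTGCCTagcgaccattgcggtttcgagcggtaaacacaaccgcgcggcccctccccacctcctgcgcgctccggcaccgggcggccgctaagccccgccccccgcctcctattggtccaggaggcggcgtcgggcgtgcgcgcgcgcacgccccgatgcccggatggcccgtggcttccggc

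The Cdkn1a run held 2 exact half-site matches separated by 12 bases, starting at positions -73 and -51 from the more distal start. The 10 bases directly after the match at -51, tgacatgttc, depart from the pattern at 1 base and were not counted. An exact search therefore does not show which of these bases form a pair. The window of the other Cdkn1a start held no match, and which transcript uses each start was not established. The Gadd45a and Mdm2 runs held 1 each, starting at -40 and -186, and the Phlda3 run held none. RefSeq windows of 300 bases (250 before to 50 after a start) were on hand for 26 of the 34 genes, and 12 of these 26 genes had at least 1 half-site in a window, against 9.55% of all 27025 genes with a window. A pair of half-sites no more than 13 bases apart was present in 1 of the 34 windows of the p53 genes, that of Cdkn1a, and in 0.0731% of 32851 windows. Of the genes with a window, 5 of the 12 that were called in at least 1 comparison had a half-site, and 7 of the 14 that were not called had one. A match of letters is a description of the window and does not show binding, and sites outside these windows were not searched.

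Among the regulators, the Trp53 transcript, which encodes p53, was measured at 89.6, 91.6 and 94.6 RPKM in the Con-sa mice, 90.3, 84.2 and 79.2 RPKM in B-sa mice, 89.1, 85.2 and 90.7 RPKM in B+Con-FMT mice, and 91.0, 99.7 and 92.0 RPKM in B+A10-FMT mice. Each busulfan group overlapped with Con-sa, the B+A10-FMT mice lay above the B-sa mice, and the difference between B-sa and Con-sa was -0.12 ± 0.06 (SE) in log2 (adjusted p = 0.17). The difference between B+A10-FMT and B-sa was 0.16 ± 0.06 (adjusted p = 0.125), so Trp53 RNA was not called in any comparison.

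Mdm2, which marks p53 for degradation and is itself a p53 target, stayed within a narrow range. Its RPKM was 34, 35.1 and 35.7 in Con-sa mice, 33.5, 29.8 and 34 in B-sa mice, 35.7, 33.5 and 33.7 in B+Con-FMT mice, and 33.4, 30.5 and 34.4 in B+A10-FMT mice. The difference between B-sa and Con-sa was -0.10 ± 0.06 (adjusted p = 0.265). Ppm1d, a phosphatase that reverses damage signaling, had RPKM values of 21.6, 19.5 and 21.0 in Con-sa mice, 20.4, 24.0 and 25 in B-sa mice, 21.1, 20.1 and 22.3 in B+Con-FMT mice, and 21.7, 20.4 and 20.8 in B+A10-FMT mice. It was not called in any comparison either.

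Mdm4, which binds p53 and blocks its activity, was the only regulator called, and only in B-sa versus Con-sa among the 6 comparisons. Its RPKM was 52.3, 50.8 and 53.4 in Con-sa and 46.1, 40.1 and 45.9 in B-sa, without overlap. The means of the FMT groups lay between these, with values of 55.4, 46.0 and 48.6 RPKM in B+Con-FMT mice and 49.0, 44.7 and 50.7 RPKM in B+A10-FMT mice. The log2 difference of B-sa from Con-sa was -0.24 ± 0.08 with an adjusted p of 0.0496, just under the threshold, and it kept the call in 3 of 10 alternative settings. The reads of Mdm4 were divided by the authors among 7 transcripts, and with only its highest transcript the estimate was 0.15 (adjusted p = 0.86).

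**Figure D1:**
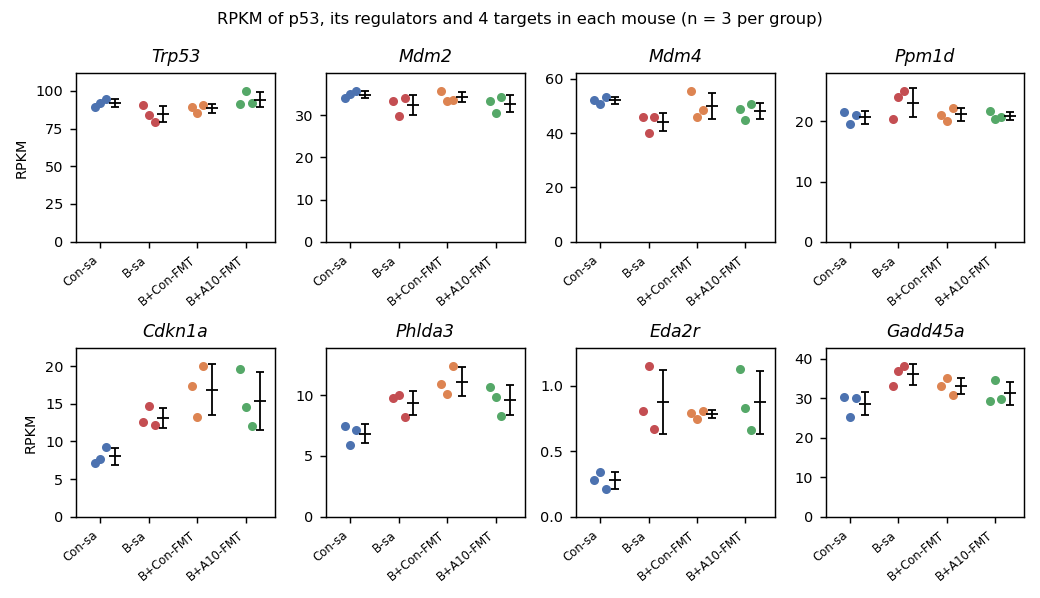
RPKM (y axis, from 0) of Trp53, 3 regulators and 4 targets in each of the 12 mice, by group (x axis). Points are mice, and the bar beside them is the mean ± SD (n = 3). Trp53, Mdm2 and Ppm1d lie in narrow ranges (79.2 to 99.7, 29.8 to 35.7 and 19.5 to 25 RPKM), whereas all 9 busulfan-treated mice lie above the 3 Con-sa mice for Cdkn1a, Phlda3 and Eda2r.

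Among the cell cycle genes, Cdkn1a showed the largest log2 difference from Con-sa of the 33 tested p53 genes in each busulfan group. It encodes p21, the inhibitor of cyclin-dependent kinases through which p53 arrests the cycle. Its RPKM was 7.09, 7.67 and 9.27 in Con-sa mice, 12.6, 14.7 and 12.2 in B-sa mice, 17.4, 13.3 and 20.0 in B+Con-FMT mice, and 19.6, 14.6 and 12 in B+A10-FMT mice. Every busulfan-treated mouse was above every Con-sa mouse, and the 3 busulfan groups overlapped with each other. Relative to Con-sa, Cdkn1a was higher by 0.66 ± 0.17 in B-sa (1.57-fold on the RPKM + 1 scale, adjusted p = 0.0322). In B+Con-FMT it was higher by 0.98 ± 0.17 (1.97-fold, adjusted p = 0.00992). In B+A10-FMT the log2 difference from Con-sa was 0.85 ± 0.17, but it did not pass the threshold (adjusted p = 0.0729). The difference between B+A10-FMT and B-sa was 0.19 ± 0.17 (adjusted p = 0.53). The adjusted p in a comparison depends on all genes in it, and B+A10-FMT differed from Con-sa in far fewer genes than the other busulfan groups did (0.41% of the genes tested were called, and 13.5% had an unadjusted p under 0.05).

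Gadd45a, a growth arrest gene that also acts in DNA repair, was measured at 30.4, 25.2 and 30.1 RPKM in Con-sa mice, 33.1, 36.9 and 38.1 RPKM in B-sa mice, 33.1, 35.0 and 30.9 RPKM in B+Con-FMT mice, and 29.2, 34.5 and 29.9 RPKM in B+A10-FMT mice. The B-sa mice lay above the Con-sa mice (log2 difference 0.33 ± 0.09, adjusted p = 0.0263), and the B+A10-FMT mice overlapped with the Con-sa mice. Ccng1, which encodes cyclin G1 and is a classical p53 target, was not called in any comparison. Its RPKM was 45.8, 47.2 and 43.5 in Con-sa mice, 50.5, 44.6 and 47.0 in B-sa mice, 53.5, 46.5 and 48.7 in B+Con-FMT mice, and 53.5, 52.1 and 49.5 in B+A10-FMT mice.

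Psrc1 and Ckap2 encode proteins of the mitotic spindle, and both were higher in B-sa. The RPKM of Psrc1 was 4.90, 3.52 and 4.22 in Con-sa mice, 6.32, 7.73 and 6.0 in B-sa mice, 3.76, 5.13 and 6.45 in B+Con-FMT mice, and 4.78, 6.81 and 6.17 in B+A10-FMT mice. For Ckap2 it was 13.8, 14.7 and 13 in Con-sa mice, 16.0, 18.7 and 19.9 in B-sa mice, 13.9, 12.8 and 17.0 in B+Con-FMT mice, and 14.6, 16.4 and 15.3 in B+A10-FMT mice. Neither gene had overlap between B-sa and Con-sa, with log2 differences of 0.56 ± 0.16 (adjusted p = 0.0416) and 0.37 ± 0.10 (adjusted p = 0.029). Of 5 proliferation markers, 3 were also called higher in B-sa (Ccna2, Birc5 and Top2a), and the summed RPKM of the list was 489 to 540 in Con-sa and 561 to 675 in B-sa. The part of cycling cells in the Psrc1 and Ckap2 values was not tested. The remaining cell cycle genes were not called in any comparison, with RPKM over all mice of 82.6 to 101 for the antiproliferative gene Btg2, 2.82 to 4.38 for the kinase Plk2 and 5.28 to 8.18 for the kinase Plk3.

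Cell death genes formed the largest group, with 12 genes. Phlda3, which restrains AKT survival signaling, followed the order of Cdkn1a. Its RPKM was 7.47, 5.93 and 7.13 in Con-sa mice, 9.80, 10 and 8.19 in B-sa mice, 10.9, 10.1 and 12.4 in B+Con-FMT mice, and 10.7, 9.86 and 8.31 in B+A10-FMT mice. All 9 busulfan-treated mice exceeded the highest Con-sa mouse. The log2 difference from Con-sa was 0.40 ± 0.11 for B-sa (adjusted p = 0.0309) and 0.63 ± 0.11 for B+Con-FMT (adjusted p = 0.00672). For B+A10-FMT it was 0.44 ± 0.11, which was not called (adjusted p = 0.13). Phlda3 is listed with a single transcript, so its value does not depend on how reads were divided among transcripts.

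Eda2r, a receptor of the tumor necrosis factor family that is induced by p53, was at a low level in all groups. Its RPKM was 0.28, 0.34 and 0.21 in Con-sa mice, 0.81, 1.15 and 0.67 in B-sa mice, 0.79, 0.75 and 0.81 in B+Con-FMT mice, and 1.13, 0.83 and 0.66 in B+A10-FMT mice. The lowest busulfan-treated mouse was above the highest Con-sa mouse. Because Eda2r failed the filter, it was tested only when no filter was applied, and the log2 difference on the RPKM + 1 scale from Con-sa was then 0.55 ± 0.10 for B-sa (adjusted p = 0.0146), 0.48 ± 0.10 for B+Con-FMT (adjusted p = 0.0299) and 0.55 ± 0.10 for B+A10-FMT (adjusted p = 0.0572). This scale understates the change of a gene at so low a level.

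Trp53i11 was the p53 gene with the lowest adjusted p among the 3 called lower in B-sa. Its RPKM was 55, 59.8 and 58.6 in Con-sa mice, 48.4, 41.1 and 44.6 in B-sa mice, 44.2, 54.1 and 47.2 in B+Con-FMT mice, and 52.1, 52.0 and 49.0 in B+A10-FMT mice, so that every busulfan-treated mouse was below every Con-sa mouse. The log2 difference of B-sa from Con-sa was -0.37 ± 0.08 (adjusted p = 0.011), that of B+Con-FMT was -0.25 ± 0.08 (adjusted p = 0.0547) and that of B+A10-FMT was -0.18 ± 0.08 (adjusted p = 0.34).

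Bax, Aen and Fas were called higher in B+Con-FMT relative to Con-sa and also relative to B+A10-FMT. Bax is the effector that permeabilizes mitochondria. Its RPKM was 64.6, 62.7 and 71.1 in Con-sa mice, 70.2, 65.8 and 69.1 in B-sa mice, 76.7, 77.8 and 77.3 in B+Con-FMT mice, and 68.0, 66.3 and 64.8 in B+A10-FMT mice. Aen, a nuclease that acts in apoptosis, was measured at 11.9, 11.9 and 12.6 RPKM in Con-sa mice, 15.3, 15.2 and 11.4 RPKM in B-sa mice, 17.3, 16.0 and 16.9 RPKM in B+Con-FMT mice, and 12.2, 13.4 and 10.8 RPKM in B+A10-FMT mice. The death receptor gene Fas was measured at 10.6, 15.3 and 12.4 RPKM in Con-sa mice, 14.0, 12.3 and 12.8 RPKM in B-sa mice, 19.3, 18.5 and 16.5 RPKM in B+Con-FMT mice, and 12.9, 13.6 and 13.8 RPKM in B+A10-FMT mice. For each of the 3 genes, the B+Con-FMT mice were above all 9 other mice. Against Con-sa the log2 differences of B+Con-FMT were 0.22 ± 0.05 for Bax (adjusted p = 0.025), 0.43 ± 0.10 for Aen (adjusted p = 0.0218) and 0.48 ± 0.10 for Fas (adjusted p = 0.0172). Against B-sa the difference of Fas was 0.44 ± 0.10 and was not called (adjusted p = 0.0676). Between the FMT groups the Aen difference lay in 1 predicted transcript, XM_006541137.2, at 6.95 to 9.54 RPKM in B+Con-FMT and 2.06 to 3.83 RPKM in B+A10-FMT mice, and with the 2 curated transcripts alone the groups differed by 0.04 (adjusted p = 0.836). In Con-sa mice the predicted transcript was at 4.27 to 4.95 RPKM, and the curated NM_001162939.1 was at 5.36 to 6.05 RPKM, against 6.0 to 6.83 RPKM in B+Con-FMT mice.

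Apaf1, the scaffold of the apoptosome, had the opposite order between the FMT groups. Its RPKM was 8.96, 8.53 and 7.55 in Con-sa mice, 8.09, 9.08 and 8.93 in B-sa mice, 7.04, 6.77 and 8.43 in B+Con-FMT mice, and 9.50, 10.7 and 9.57 in B+A10-FMT mice. The B+A10-FMT mice were the 3 highest of the 12. The death inducers Bbc3 (PUMA) and Pmaip1 (NOXA) were not called in any comparison. Bbc3 was measured at 4.04, 3.44 and 4.29 RPKM in Con-sa mice, 4.11, 3.54 and 3.10 RPKM in B-sa mice, 3.70, 4.60 and 4.39 RPKM in B+Con-FMT mice, and 4.13, 4.05 and 3.86 RPKM in B+A10-FMT mice. The RPKM of Pmaip1 was 8.82, 10.2 and 8.68 in Con-sa mice, 8.57, 8.81 and 7.81 in B-sa mice, 10.4, 10.8 and 8.88 in B+Con-FMT mice, and 10.9, 10.1 and 10.7 in B+A10-FMT mice. The B+A10-FMT mice lay above the B-sa mice for Pmaip1, and the log2 difference of 0.30 ± 0.08 fell just short of the threshold (adjusted p = 0.0524). Over all mice the TRAIL receptor gene Tnfrsf10b was at 1.37 to 2.35 RPKM, Perp at 0.45 to 1.22 RPKM and Ei24 at 31.9 to 37.5 RPKM, and none of them was called.

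Of the genes for stress, RNA and autophagy, only Sesn2 was called. The sestrins restrain mTORC1 signaling under stress. The RPKM of Sesn2 was 6.44, 5.72 and 6.55 in Con-sa mice, 5.09, 5.68 and 5.71 in B-sa mice, 5.41, 4.63 and 6.14 in B+Con-FMT mice, and 7.59, 7.36 and 6.37 in B+A10-FMT mice, with the B+A10-FMT mice above those of both other busulfan groups. For Sesn1 the values were 48.9, 46.3 and 46.9 RPKM in Con-sa mice, 43.0, 41.6 and 46.4 RPKM in B-sa mice, 42.7, 41.8 and 41.9 RPKM in B+Con-FMT mice, and 46.1, 44.4 and 51.5 RPKM in B+A10-FMT mice. Zmat3, an RNA-binding zinc finger gene, was measured at 1.79, 2.43 and 2.44 RPKM in Con-sa mice, 2.23, 2.12 and 2.1 RPKM in B-sa mice, 2.76, 2.49 and 2.43 RPKM in B+Con-FMT mice, and 2.83, 2.74 and 2.73 RPKM in B+A10-FMT mice. Trp53inp1, an autophagy and stress gene, ranged from 28.7 to 41.2 RPKM, and the lysosomal gene Dram1 from 9.79 to 14.5 RPKM (log2 difference of B-sa from Con-sa 0.27 ± 0.09, adjusted p = 0.0605).

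Estimates for all 5 genes of DNA repair and nucleotide supply were below 0 in B-sa versus Con-sa, and 1 of them, Ddb2, was called (9.78% of all genes tested were called lower). Their median log2 difference was -0.16, and that of all genes tested was -0.04. Ddb2 recognizes damaged bases for nucleotide excision repair. Its RPKM was 18.5, 18.8 and 20.1 in Con-sa mice, 15.8, 16.1 and 15.4 in B-sa mice, 19.4, 16.8 and 16.6 in B+Con-FMT mice, and 15.5, 16.2 and 18.0 in B+A10-FMT mice. The B-sa mice lay below the Con-sa mice, with a log2 difference of -0.26 ± 0.07 (adjusted p = 0.0289). Xpc, another damage sensor of the same repair pathway, differed by -0.21 ± 0.07 without being called (adjusted p = 0.0654). Over all mice Xpc was at 7.14 to 9.65 RPKM, the ribonucleotide reductase gene Rrm2b at 7.78 to 10.9 RPKM, the translesion polymerase gene Polk at 4.52 to 5.73 RPKM and the repair nuclease gene Ercc5 at 5.73 to 7.57 RPKM.

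The comparison of B-sa with Con-sa asked what busulfan did to the p53 genes. In it 5 of 33 were higher (Cdkn1a, Psrc1, Phlda3, Ckap2 and Gadd45a) and 3 were lower (Trp53i11, Ddb2 and Mdm4), while 4.73% of all genes tested were called higher and 9.78% lower. The higher genes were 4 of 8 cell cycle genes and 1 of 11 cell death genes tested. The median log2 difference of the 33 genes was -0.03, beside -0.04 over all genes tested. Median-of-ratios scaling called 6 higher and 1 lower. The calls depended on single mice: without B-sa replicate 2, 0 of the 33 genes were called, and without Con-sa replicate 2 only 1. Of the 6 fits that each left out 1 mouse, Cdkn1a kept its call in 1, Phlda3 in 2, Gadd45a in 3, Trp53i11 in 5, Psrc1 in 0, and Ddb2, Mdm4 and Ckap2 in 1 each, and each of these genes kept its direction in all 6. With NM transcripts 1 gene was called and with the highest transcript of each gene 0. The log2 differences of Phlda3 (0.40) and Gadd45a (0.33), each with a single transcript, were unchanged in these fits and only their adjusted p moved, to 0.0638 and 0.0518 on NM transcripts, while the log2 difference of Ckap2 went from 0.37 to 0.16. All 4 B cell markers, Cd79a, Cd79b and Ms4a1 among them, were called lower in B-sa. Cd79b was at 425.5, 478.9 and 442.2 RPKM in Con-sa mice and 373.7, 309.2 and 321.9 RPKM in B-sa mice (log2 difference -0.42 ± 0.07, adjusted p = 0.00512). The neutrophil markers summed to 2495 to 3990 RPKM against 1366 to 1450 in Con-sa mice, with none of the 3 called and 3 at an unadjusted p under 0.05. Of 5 erythroid precursor markers 2 were called higher (Klf1 and Tfrc) and 5 had an unadjusted p under 0.05, with sums of 1307 to 1403 RPKM in Con-sa and 1401 to 1789 RPKM in B-sa mice, and globin genes took 24.9 to 25.9% and 28.0 to 32.4% of the summed RPKM. The kidney gene Kap (-3.00 ± 0.51, adjusted p = 0.0104), the endothelial gene Pecam1 (-0.21 ± 0.06, adjusted p = 0.0296) and the spleen stroma gene Tlx1 (-0.25 ± 0.07, adjusted p = 0.034) were lower. The part of these marker shifts in the p53 values was not tested.

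B+Con-FMT versus Con-sa compared mice with busulfan and control FMT with saline-dosed mice. Here 5 of 33 genes were higher (Cdkn1a, Phlda3, Fas, Aen and Bax) and 0 were lower, beside 2.3% of all genes higher and 6.57% lower. The median over the 33 genes was 0.05, and -0.04 over all genes tested. Cdkn1a and Phlda3 kept their calls in all 10 alternative settings and with any 1 of the 6 mice left out. Fas lost its call without Con-sa replicate 1 or B+Con-FMT replicate 1 or 2, and Bax kept it in 1 and Aen in 2 of 6 such fits. Aen also lost its call on NM transcripts (0.19, adjusted p = 0.319) and on the highest transcript (0.15, adjusted p = 0.45), where Fas and Bax were not called either. The highest Fas transcript was at 10.05 to 13.85 RPKM in Con-sa and 14.99 to 17.78 RPKM in B+Con-FMT mice. That of Bax was at 62.08 to 70.7 RPKM and 75.62 to 76.71 RPKM, so neither overlapped between these groups. With libraries scaled to equal totals without the globin genes, 5 were called higher and 3 lower (Trp53i11, Xpc and Sesn1). Other markers moved as well. The T cell gene Cd3e was higher in B+Con-FMT than in Con-sa by 0.40 ± 0.10 (adjusted p = 0.0329). Of 5 proliferation markers only Birc5 was called (0.28 ± 0.07, adjusted p = 0.0286), with 3 estimates above 0 and 2 below. Of 6 immediate early genes only Ier2 was called (0.28 ± 0.07, adjusted p = 0.0369), with 4 estimates above 0 and 2 below. The B cell gene Cd79b (-0.28 ± 0.07, adjusted p = 0.0276) and the endothelial genes Pecam1 and Cdh5 were lower. Pancreatic acinar genes summed to 2827 to 4363 RPKM in B+Con-FMT and 443 to 2367 RPKM in Con-sa. The part of all these markers in the p53 values was not tested.

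For B+A10-FMT against Con-sa limma called 0 of 33 p53 genes, and 11 were at an unadjusted p under 0.05, among them Cdkn1a, Phlda3, Btg2 and Ccng1 (0.41% of all genes tested were called and 13.5% had an unadjusted p under 0.05). Of the markers, Kap was lower (-5.24 ± 0.51, adjusted p = 0.0107), and Slc40a1 (0.55 ± 0.10, adjusted p = 0.0434) and Tlx1 (0.36 ± 0.07, adjusted p = 0.0451) were higher, and their part was not tested. A missed threshold does not show that the levels were equal to those of Con-sa, and the differences from Con-sa were 0.85 in these mice and 0.66 in B-sa for Cdkn1a, and 0.44 and 0.40 for Phlda3. To use all 9 busulfan-treated mice, their mean over the 3 groups was compared with Con-sa in the same fit, a contrast chosen after the values were seen. Cdkn1a was higher by 0.83 ± 0.14 (1.77-fold, adjusted p = 0.0114) and Phlda3 by 0.49 ± 0.09 (adjusted p = 0.0112), and Trp53i11 was lower (-0.26 ± 0.06, adjusted p = 0.028), beside 1.87% of all genes higher and 4.21% lower. Eda2r, without a filter, differed by 0.53 with an adjusted p of 0.0127. Cdkn1a lost its call without Con-sa replicate 1 or 2 (highest adjusted p = 0.0662), and Phlda3 without Con-sa replicate 2 (adjusted p = 0.0653). Trp53i11 lost its call without any 1 of the 3 Con-sa mice (highest adjusted p = 0.12), and on NM transcripts or the highest transcript alone (-0.15 in both, adjusted p = 0.307 and 0.337). Among the markers, 3 of 4 B cell genes (Cd79a and Cd79b among them) and Kap (-3.30 ± 0.41, adjusted p = 0.00704) were lower in the busulfan-treated mice. Markers called higher were 2 of 5 of proliferation (Birc5 and Ccna2) and 1 of 5 of erythroid precursors (Tfrc). The part of all these markers in these differences was not tested.

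**Figure D2:**
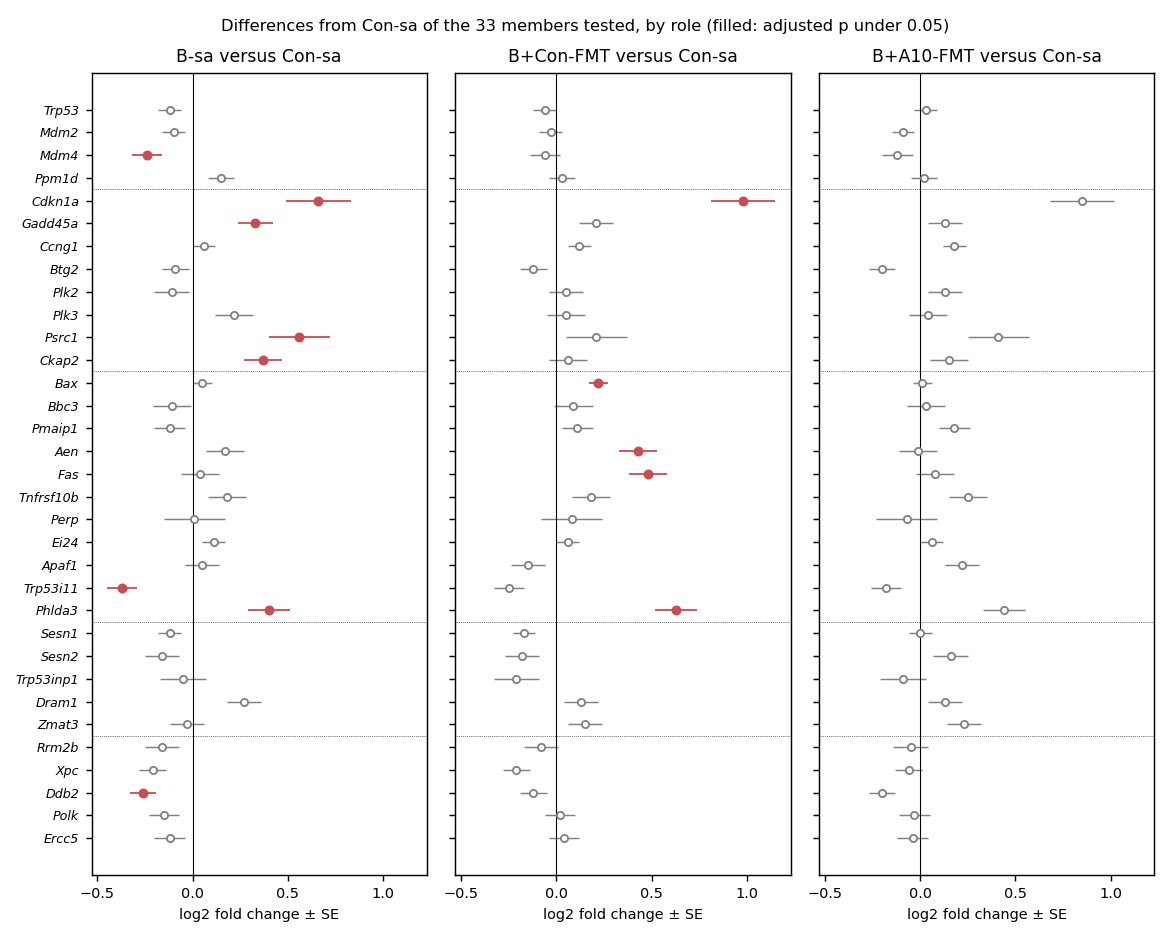
Log2 fold change ± SE of each of the 33 tested p53 genes (y axis, grouped by role between dotted lines) in the 3 busulfan groups against Con-sa, which the panels share as the control. Filled points passed an adjusted p of 0.05: 8 genes for B-sa, 5 for B+Con-FMT and 0 for B+A10-FMT, and the estimates of Cdkn1a and Phlda3 are on the same side in all 3 panels.

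The effect of each FMT on busulfan-treated mice was asked by comparison with the B-sa mice. For B+Con-FMT against B-sa, limma called 0 of 33 p53 genes, with 8 at an unadjusted p under 0.05 (0.844% of all genes were called and 18.4% had an unadjusted p under 0.05). In B+A10-FMT versus B-sa it likewise called 0 of 33, with 8 at an unadjusted p under 0.05 (5.27% and 24.5% of all genes). Neither Cdkn1a nor Phlda3 was called lower after FMT. The log2 differences of Cdkn1a from B-sa were 0.32 ± 0.17 with Con-FMT and 0.19 ± 0.17 with A10-FMT, and those of Phlda3 were 0.23 ± 0.11 and 0.04 ± 0.11.

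The 2 FMT groups differed from each other in 5 of 33 genes. Apaf1 (0.38 ± 0.09, adjusted p = 0.0204) and Sesn2 (0.35 ± 0.09, adjusted p = 0.0387) were higher with A10-FMT, and Aen (-0.44 ± 0.10, adjusted p = 0.0188), Fas (-0.40 ± 0.10, adjusted p = 0.0329) and Bax (-0.22 ± 0.05, adjusted p = 0.0251) were lower. Among all genes tested, 7.58% were higher and 2.78% lower. Median-of-ratios scaling called 1 higher and 3 lower, and scaling to equal totals without the globin genes called 3 higher and 2 lower. On the highest transcript of each gene 0 were called. There Bax was at 64.02 to 67.45 RPKM with A10-FMT and 75.62 to 76.71 RPKM with Con-FMT, and Fas at 10.62 to 13.25 RPKM and 14.99 to 17.78 RPKM. Sesn2 is listed with a single transcript, so its log2 difference was unchanged. The estimate of Aen reversed (0.14), and the groups overlapped for Apaf1 (4.42 to 6.67 RPKM and 3.41 to 6.38 RPKM). Without B+Con-FMT replicate 1, 0 of 33 were called, and 1 without B+Con-FMT replicate 2 or without B+A10-FMT replicate 2. In the same comparison 3 of 4 red pulp macrophage markers were higher (Slc40a1, Spic and Vcam1), with sums of 340 to 409 RPKM in B+A10-FMT and 231 to 297 RPKM in B+Con-FMT, and Pecam1, Cdh5 and Tlx1 were higher. Of 6 immediate early genes only Ier2 was called (-0.30 ± 0.07, adjusted p = 0.0287), with 2 estimates above 0 and 4 below. Kap was lower (-3.59 ± 0.51, adjusted p = 0.00789). None of the 5 pancreatic acinar genes was called, but 4 had an unadjusted p under 0.05, the median log2 difference was -2.91, and their sums were 165 to 3196 RPKM with A10-FMT and 2827 to 4363 RPKM with Con-FMT. The part of these markers in the p53 values was not tested.

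**Figure D3:**
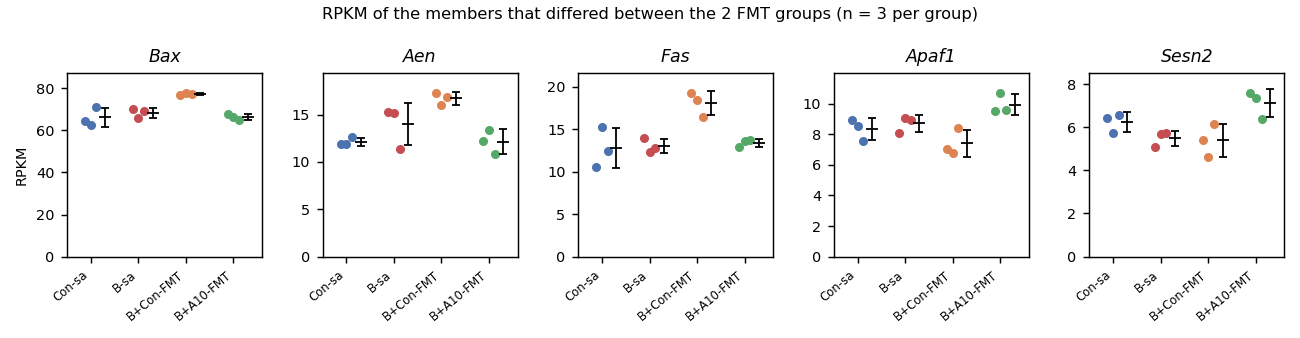
RPKM (y axis, from 0) in each mouse by group (x axis) of the 5 p53 genes that differed between B+A10-FMT and B+Con-FMT. Points are mice, and bars are the mean ± SD (n = 3). The B+Con-FMT mice are the highest of all 12 for Bax, Aen and Fas, and the B+A10-FMT mice are the highest for Apaf1.

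As a single description, the mean of log2(RPKM + 1) over all 34 genes was 3.76 ± 0.016 for Con-sa, 3.81 ± 0.018 for B-sa, 3.85 ± 0.037 for B+Con-FMT and 3.85 ± 0.004 for B+A10-FMT (SD, n = 3), while the same mean over all genes tested was 3.84, 3.80, 3.80 and 3.83. The mean over the 8 cell cycle genes was 3.93 in Con-sa and 4.17, 4.12 and 4.13 in the busulfan groups (B-sa, then Con-FMT, then A10-FMT). Over the 12 cell death genes it was 3.24 in Con-sa and 3.33, 3.44 and 3.37 in the busulfan groups. The mean over the 5 DNA repair genes went the other way, from 3.36 in Con-sa to 3.18, 3.29 and 3.28. In B+Con-FMT versus Con-sa, 2 of these 5 genes had estimates above 0. The mean over the 4 regulators was also lower, at 5.47 in Con-sa and 5.39, 5.44 and 5.43 in the busulfan groups. Over the 5 genes for stress, RNA and autophagy it was 3.77 in Con-sa and 3.75, 3.71 and 3.85. Without a test, and with members chosen for their role in the pathway, these means only summarize the genes above.

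**Figure D4:**
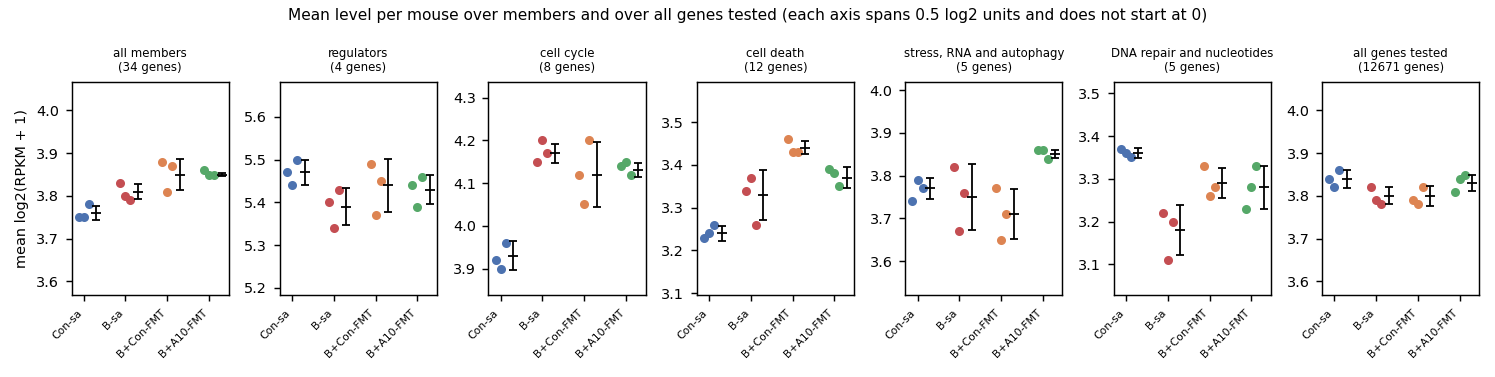
Mean log2(RPKM + 1) per mouse (y axis, a range of 0.5 log2 units in each panel that does not start at 0) by group (x axis), over the p53 genes, over each role and over all genes tested. Points are mice, and bars are the mean ± SD (n = 3). Cell cycle means lie at 3.90 to 3.96 in Con-sa and at 4.05 to 4.20 in the busulfan groups, whereas DNA repair means are lower in the busulfan groups.

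Outside the 34 genes, 55 further genes of the damage response were looked up (sensors and kinases, partners and modifiers of p53, and further targets), of which 50 were tested. In B-sa versus Con-sa 3 were higher and 7 lower, beside 4.73% and 9.78% of all genes tested. The higher genes were the replication clamp gene Pcna (0.34 ± 0.06, adjusted p = 0.00533), the peroxidase gene Gpx1 (0.36 ± 0.08, adjusted p = 0.0123) and H2afx, which encodes the histone variant that is phosphorylated at breaks (0.33 ± 0.08, adjusted p = 0.0164). Among the lower genes the largest differences were those of Sesn3 (-0.55 ± 0.14, adjusted p = 0.0223), the kinase gene Dyrk2 (-0.36 ± 0.10, adjusted p = 0.036) and Ppp1r13b, whose product steers p53 toward death genes (-0.34 ± 0.06, adjusted p = 0.0082). The damage kinase genes Atm and Prkdc were also lower. In the same mice 3 of the 5 proliferation markers were called higher, and their part in the Pcna and H2afx values was not tested. Median-of-ratios scaling called 8 higher and 3 lower.

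B+Con-FMT versus Con-sa called 4 of these genes higher, with the largest differences for Ak1 (0.35 ± 0.09), Rps27l (0.32 ± 0.07) and H2afx (0.28 ± 0.08), and 2 lower, Pml (-0.33 ± 0.08) and Rad50 (-0.23 ± 0.06), beside 2.3% and 6.57% of all genes. This split moved with the scaling, to 6 higher and 1 lower with median-of-ratios and to 2 higher and 6 lower with equal totals outside the globin genes, and 0 were called without Con-sa replicate 1 or 2. Between the FMT groups Pml (0.35 ± 0.08), Rad50 (0.25 ± 0.06) and Abhd4 (0.24 ± 0.06) were higher and Rps27l (-0.29 ± 0.07) was lower in B+A10-FMT, where 7.58% of all genes were higher and 2.78% lower (1 and 1 of the further genes with median-of-ratios, 7 and 1 with equal totals outside the globin genes). Rps27l is a p53 target, and Pml organizes the nuclear bodies in which p53 is modified. In B+A10-FMT versus B-sa, Igfbp3 (0.44 ± 0.07) and Trp53bp1 (0.30 ± 0.06) were higher and Pcna (-0.25 ± 0.06) was lower (2 and 2 with median-of-ratios), while 5.27% of all genes were called. Markers called in this comparison were Slc40a1 and Spic, 2 of 4 of red pulp macrophages, Tlx1 (0.61 ± 0.07, adjusted p = 0.0013) and Cdh5 (0.50 ± 0.11, adjusted p = 0.023), which were higher, and Kap, which was lower (-2.24 ± 0.51, adjusted p = 0.0443). None of the 5 proliferation markers was called, 2 had an unadjusted p under 0.05, and 5 had estimates below 0. The part of these markers was not tested. By limma 0 of the 50 were called in B+Con-FMT versus B-sa, with 16 at an unadjusted p under 0.05 (0.844% and 18.4% of all genes). For B+A10-FMT against Con-sa limma called 0, with 10 at an unadjusted p under 0.05 (0.41% and 13.5% of all genes). In the contrast of the 3 busulfan groups against Con-sa, 4 were higher and 2 lower, beside 1.87% and 4.21% of all genes, and 7 and 1 with median-of-ratios. With any 1 of the 3 Con-sa mice left out, 0 were called in this contrast.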

How the data were processed

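RNA from the spleens of 12 mice was measured, with groups taken from the sample labels. The authors used TRIzol, DNase I and oligo(dT) enrichment, and they deposited RPKM for 60654 RefSeq transcripts. The paper names SOAPaligner for mapping, whereas the submitters' processing notes name HISAT, Bowtie2 and mm10, and the sequencer also differs between these sources. Strand use in counting is not given in the sources used here. The submitters' assignment of reads to transcripts decides transcript values, so transcripts were summed to 18221 genes (18101 with a symbol). No read counts were used, and the number of mice limits the precision. Nothing says that mice were housed apart, so p-values measure the spread between these mice.

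The log2(RPKM + 1) of each gene with RPKM of at least 1 in 3 mice was fitted by group over all 12 mice together (limma 3.58.1, trend and robust, R 4.3.3, two-sided). The p53 genes and all lists were chosen with earlier results of these data known. RPKM of every mouse is printed for 14 p53 genes named in the plan and for each further gene called in any of 6 comparisons, and the others are given by range. Of the further damage response genes, up to 3 called higher and 3 called lower of largest change per comparison are named. Atm, Prkdc, and the marker genes are named beside this rule. Spata18 had no match, so 55 of 56 further symbols were used. RefSeq promoter windows were searched in Python 3.11.15 with pandas 2.3.3. The fit was tested on simulated data. Alternatives were no filter, RPKM at least 1 in every mouse, a smaller pseudocount (0.1), a replicate block, only the 2 groups compared, median-of-ratios scaling, equal totals outside globin genes, NM transcripts only, the highest transcript only, no trend, and each mouse left out in turn.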

Additional observations from a re-analysis of the deposited data

Results flagged for a closer look

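For 5 p53 genes the change from B-sa differed between the 2 transplants, as tested by the direct limma comparison of B+A10-FMT with B+Con-FMT (2 of 33 higher and 3 lower, beside 7.58% and 2.78% of all genes). Without B+Con-FMT replicate 1, or on the highest transcript of each gene, 0 were called. On that transcript the mice of the 2 FMT groups still did not overlap for Bax, Fas and Sesn2. Aen reversed there, and Apaf1 overlapped. The change with A10-FMT minus that with Con-FMT was -0.44 for Aen, -0.40 for Fas and -0.22 for Bax, and 0.38 for Apaf1 and 0.35 for Sesn2, in log2. Against B-sa itself, limma called none of the 5 genes in either FMT group: 4 of them were at an unadjusted p under 0.05 with Con-FMT (Fas, Bax, Aen and Apaf1) and 1 with A10-FMT (Sesn2). No group had 4 or more mice, so single mice were not tested for standing apart.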

How the results depend on the processing

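Of the values of called p53 genes under the alternatives, 234 of 351 kept direction and call, 114 kept direction and lost the call, and 3 reversed, and the cause was not tested: Mdm4 in B-sa against Con-sa with the highest transcript only (0.15), and Aen between the FMT groups with NM transcripts only (0.04) or the highest transcript only (0.14). With NM transcripts only, the p53 genes called were 1 (from 8) in B-sa against Con-sa and 2 (from 5) between the FMT groups, and with the highest transcript only 0, 0 and, in B+Con-FMT against Con-sa, 2 (from 5). No filter gave 3 between the FMT groups. In B+A10-FMT against B-sa, 1 (from 0) was called with RPKM at least 1 in every mouse and with equal totals outside globin genes, in both cases Pmaip1. The latter scaling gave 8 in B+Con-FMT against Con-sa. The replicate numbers did not pair the mice (correlations of same-numbered deviations of -0.37 to 0.30), and the replicate block gave 3 p53 genes between the FMT groups and 3 further genes (from 6) in the 3 busulfan groups against Con-sa. With the block, at the same log2 differences, the adjusted p was 0.056 for Cdkn1a and 0.0522 for Psrc1 in B-sa against Con-sa, 0.0507 for Fas and 0.0579 for Sesn2 between the FMT groups, and 0.0514 for Trp53i11 in the 3 busulfan groups.

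Of the further damage response genes, fits of only the 2 groups compared called 5 (from 10) in B-sa against Con-sa and 1 (from 3) in B+A10-FMT against B-sa. The highest transcript gave 5 in B-sa against Con-sa, 2 (from 4) between the FMT groups, 2 (from 6) in B+Con-FMT against Con-sa and 1 (from 6) in the 3 busulfan groups, and NM transcripts gave 1 in both of the last. Median-of-ratios scaling gave 1 (from 0) in B+Con-FMT against B-sa and in B+A10-FMT against Con-sa and 2 between the FMT groups, and equal totals outside globin genes gave 1, 1 and 8.

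The difference in the mean over the 34 genes, in the order given, moved in B-sa against Con-sa from 0.049 to 0.078 (pseudocount of 0.1), 0.092 (median-of-ratios) and 0.069 (highest transcript). In B+Con-FMT against B-sa it moved from 0.045 to -0.002 (globin genes set aside). In B+A10-FMT against B-sa it moved from 0.043 to -0.000 (median-of-ratios), 0.067 (NM transcripts) and 0.057 (highest transcript). Between the FMT groups it moved from -0.001 to -0.047 (median-of-ratios) and 0.050 (globin genes set aside). In B+Con-FMT against Con-sa it moved from 0.094 to 0.129 (pseudocount of 0.1), 0.139 (median-of-ratios) and 0.050 (globin genes set aside), and in B+A10-FMT against Con-sa from 0.092 to 0.128 (pseudocount of 0.1), 0.079 (genes past the filter), 0.110 (NM transcripts) and 0.126 (highest transcript).

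With each mouse left out in turn, the p53 genes called ranged from 0 to 6 in B-sa against Con-sa, 0 to 1 in B+Con-FMT against B-sa, 0 to 5 between the FMT groups, 2 to 5 in B+Con-FMT against Con-sa, 0 to 1 in B+A10-FMT against Con-sa and 0 to 5 in the 3 busulfan groups against Con-sa, and the further genes from 3 to 13, 0 to 1, 0 to 5, 0 to 6, 0 to 1 and 0 to 7 in the same order, and from 1 to 6 in B+A10-FMT against B-sa. Such a fit leaves 2 mice in a group, and low-level values such as those of Eda2r rest on few reads.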

Other observations

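Values of single transcripts followed the gene sums for some p53 genes and not for others. Nearly all Cdkn1a RPKM lay in NM_007669.5, at 6.70 to 9.27 in Con-sa and 10.63 to 19.63 in the busulfan groups, whereas NM_001111099.2 was at 0 to 2.15. Trp53 was carried mainly by NM_011640.3, at 63.15 to 82.91 RPKM. Mdm2 was split between NM_010786.4 (16.77 to 24.65 RPKM) and NM_001288586.2 (7.69 to 17.71 RPKM), and in the Con-sa mice the first was at 22.35, 23.47 and 16.77 RPKM and the second at 10.73, 10.99 and 17.71 RPKM, with sums of 34 to 35.7 RPKM over all transcripts. Psrc1 was listed at 0 for NM_019976.3 in 1 Con-sa mouse and at 0 for NM_001190161.1 in 1 B-sa mouse, so its transcripts cannot be read singly.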
